A study of Mus musculus with 9 samples.

Results

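The 9 genes described here belong to the NADPH oxidase and dual oxidase machinery: Cyba, Cybb, Nox1, Nox4, Ncf1, Duox1, Duox2, Duoxa1 and Duoxa2. They were taken by gene symbol from a count table of 55487 genes, in which all 9 members were found. The members were picked with values of these same libraries known, so their levels and fold changes are given as descriptions, without a test. The libraries were made from MCEC, a mouse cell line established from the endothelium of the heart, and formed 3 groups of 3. WT libraries came from unmodified cells, KD libraries from cells with Zbtb46 knocked down, and OE libraries from cells made to overexpress Zbtb46, a zinc finger transcription factor with a BTB domain. The labels do not give the method of knockdown or overexpression, whether a modified line was 1 clone, or the origin of the replicates, and no library of cells with a control vector was analysed here. Measures of spread and p-values therefore reflect only the differences between these libraries, which may be technical.

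NADPH oxidases are membrane enzymes that pass electrons from NADPH to oxygen and so make superoxide or hydrogen peroxide. Cybb (the phagocyte enzyme NOX2), Nox1 and Nox4 are catalytic subunits that are held in the membrane by a common partner, p22phox, the product of Cyba. Cytosolic proteins such as p47phox, the product of Ncf1, and the GTPase Rac switch on NOX1 and NOX2, whereas NOX4 is active without them. Endothelial cells are known mainly for NOX4 and NOX2. The dual oxidases Duox1 and Duox2 make hydrogen peroxide in thyroid and epithelia, do not use p22phox, and need the maturation factors encoded by Duoxa1 and Duoxa2 to leave the endoplasmic reticulum.

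In these cells 2 of the 9 genes were expressed above a few counts, and both stood far apart in OE. Cyba was 34.3-fold lower in OE than in WT, and Duoxa2, nearly without counts in WT and KD, was at least 56.5-fold higher in OE than in WT. The other 7 genes had between 0 and 13 counts per library. The start regions of Cyba and Duoxa2 are shown first, because these are the members whose levels set OE apart. Both are the 250 bases before the RefSeq transcription start on GRCm38.p6, printed 5′ to 3′ on the strand of the gene. Capitals mark matches, on either strand, to 7 short motifs: the TATA box (TATAAA), the GC box (GGGCGG), the octamer (ATTTGCAT), the CCAAT box (CCAAT), the AP-1 site (TGANTCA), the cyclic AMP response element (TGACGTCA) and the core of the PU.1 site (GAGGAA). The Cyba region lies at chr8:122432941-122433190 on the minus strand and the Duoxa2 region at chr2:122298650-122298899 on the plus strand.
Cyba: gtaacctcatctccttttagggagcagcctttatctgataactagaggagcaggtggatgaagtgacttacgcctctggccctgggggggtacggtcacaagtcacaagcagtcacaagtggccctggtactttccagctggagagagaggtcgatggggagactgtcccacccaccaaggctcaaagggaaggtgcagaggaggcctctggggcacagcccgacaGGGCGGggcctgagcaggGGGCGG
Duoxa2: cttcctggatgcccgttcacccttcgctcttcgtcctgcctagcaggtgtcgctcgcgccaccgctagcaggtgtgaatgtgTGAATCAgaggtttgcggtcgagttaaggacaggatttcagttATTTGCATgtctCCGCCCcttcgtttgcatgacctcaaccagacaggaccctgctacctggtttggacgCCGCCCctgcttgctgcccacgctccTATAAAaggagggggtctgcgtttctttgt

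The Cyba region, 60.0% G and C, held 2 GC boxes, which began 24 and 6 bases before the start, and no match to the other 6 motifs. The Duoxa2 region, 56.4% G and C, held a TATA box beginning 30 bases before the start, GC boxes at 113 and 56 bases, an octamer at 125 bases and an AP-1 match at 168 bases. Among 32851 regions of the same length before RefSeq start sites, 12.4% held the TATA box, 32.7% the GC box, 1.6% the octamer, 6.75% the AP-1 match, 33.8% the CCAAT box, 1.55% the cyclic AMP response element and 23.3% the PU.1 core. The median region was 52.4% G and C. The motifs were not part of the planned design, and a match describes letters only.

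Sequencing depth ran from 39491828 to 55745849 counts per library, and 16955 genes passed the filter on low counts. Zbtb46 itself had 13.2 to 14.4 CPM (the count scaled to a common library total with TMM factors) in WT, 10.6 to 11.7 in KD and 188.5 to 193.8 in OE. Its log2 fold change was -0.28 (SE 0.055) in KD and 3.81 (SE 0.039) in OE, with adjusted p of 0.00144 and 3.24e-21 in edgeR's quasi-likelihood test. Ribosomal RNA features took 7.32% to 17.1% of the counts in WT, 9.44% to 11.8% in KD and 14.2% to 18.03% in OE. Markers that define endothelium were scarce in all 9 libraries: Pecam1 had 36 counts in all, Cdh5 12, Emcn 2 and Erg 0, and Kdr had 2.63 CPM in WT. The 8 endothelial markers summed to 4.49 to 4.98 CPM in WT, 2.54 to 3.30 in KD and 2.30 to 2.68 in OE. By contrast, the 7 smooth muscle and fibroblast markers summed to 5016 to 5597 CPM in WT, 4757 to 4816 in KD and 4006 to 4098 in OE, almost all of it Col1a1. Of the 8 myeloid markers, Ptprc, Itgam, Spi1, Adgre1 and Itgax had at most 3 counts in every library, and the list summed to 4.11 to 4.65 CPM in WT, 5.18 to 5.62 in KD and 3.18 to 4.52 in OE, mostly Cd68. The 6 epithelial markers summed to 460.7 to 562.9 CPM in WT, 436.8 to 459.1 in KD and 461.7 to 482.5 in OE, mostly Krt19, with Epcam at no more than 3 counts. The part of these marker and ribosomal RNA differences in the results was not tested, and in bulk RNA fewer cells of a type and less RNA per cell cannot be told apart.

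**Figure D1:**
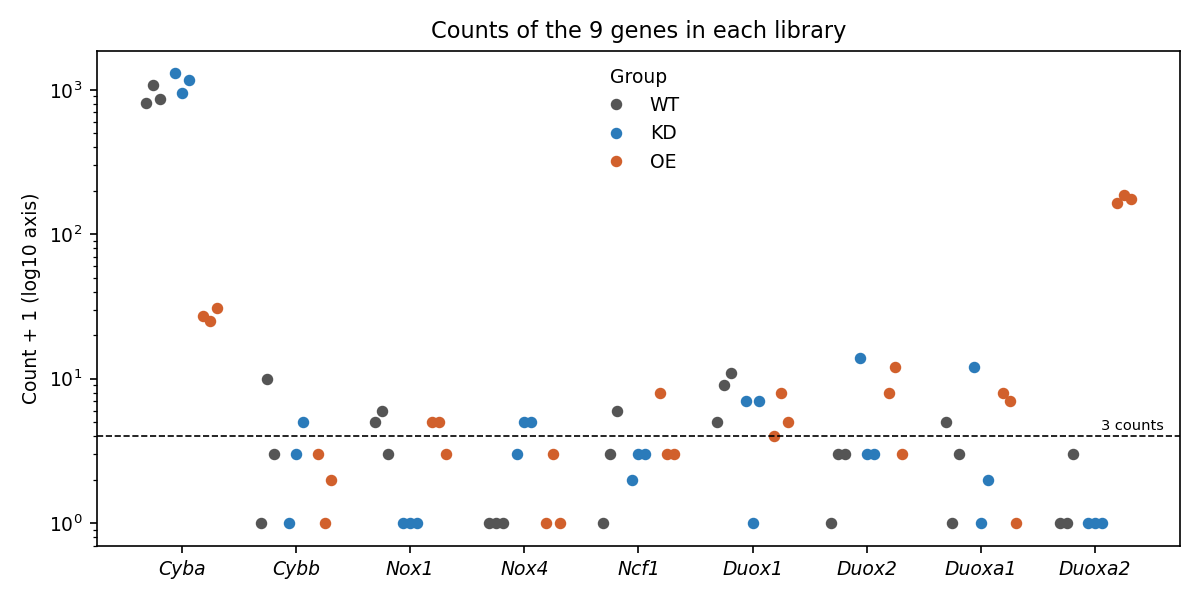
Counts of the 9 genes in each library, plotted as count + 1 on a log10 axis, with 1 point per library coloured by group and a dashed line at 3 counts. Cyba lies between 804 and 1301 counts in WT and KD and between 24 and 30 in OE, Duoxa2 between 164 and 186 in OE and at most 2 elsewhere, and the other 7 genes never exceed 13 counts.

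Cyba (ENSMUSG00000006519) encodes the small membrane subunit p22phox and lies at chr8:122424776-122432930 on the minus strand of GRCm38, inside the span of the gene model Gm20388 on the opposite strand, which was not analysed here. The 3 WT libraries had 804, 1070 and 866 counts, or 21.2, 18.0 and 19.4 CPM. The KD libraries had 1301, 947 and 1177 counts, or 25.8, 23.8 and 24.1 CPM. The OE libraries had 26, 24 and 30 counts, or 0.554, 0.484 and 0.666 CPM. Every OE library lay far under every other library, and every KD library lay above every WT library.

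Cyba averaged 19.5 ± 1.61 CPM in the WT group (SD, n = 3), 24.6 ± 1.11 CPM in the KD group and 0.568 ± 0.092 CPM in the OE group. The log2 fold change was -5.10 (SE 0.14) in OE against WT and -5.43 (SE 0.13) in OE against KD. Between KD and WT it was 0.34 (SE 0.078), so KD was 1.26-fold higher. Among the 16955 genes tested, 11 had a lower fold change than Cyba in OE against WT. Per kilobase of exon, Cyba exceeded 83.8% of the tested genes with a known length in WT, 87.4% in KD and 22.3% in OE. From high to low the groups ranked KD, WT, OE, and no 2 neighbours in that order overlapped.

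**Figure D2:**
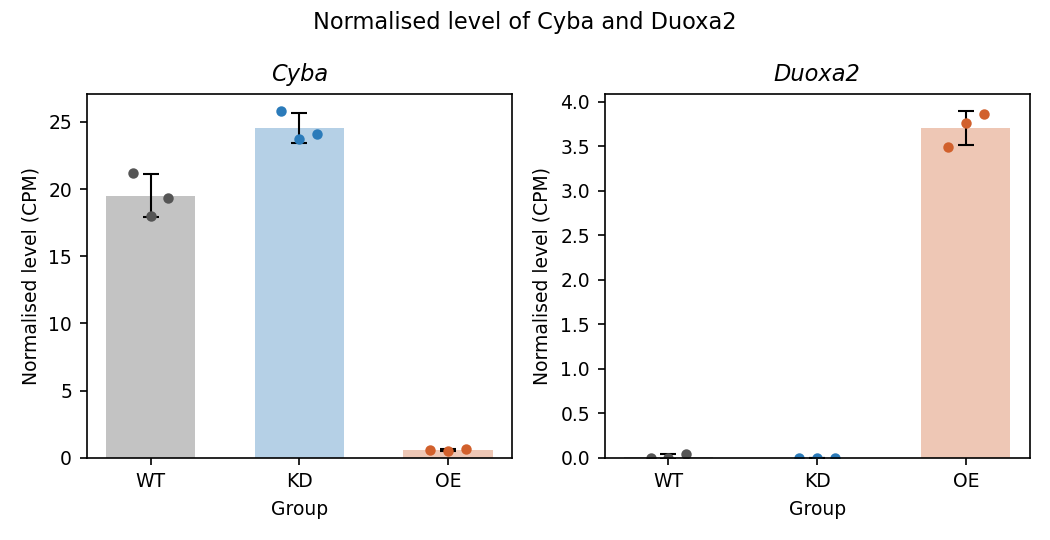
Normalised level (CPM) of Cyba and Duoxa2 by group, with 1 point per library, bars at the group mean starting at 0 and error bars of 1 SD (n = 3). Cyba averages 19.5 CPM in WT, 24.6 in KD and 0.568 in OE, and Duoxa2 averages 3.70 CPM in OE with points at or near 0 in WT and KD.

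The catalytic partners of p22phox were close to the limit of detection in all groups. Cybb had counts of 0, 9 and 2 (WT), 0, 2 and 4 (KD), and 2, 0 and 1 (OE). Nox1, the catalytic subunit best known from colon epithelium, had 4, 5 and 2 counts in WT, 0 in each KD library, and 4, 4 and 2 in OE. Nox4 had 0 counts in each WT library, 2, 4 and 4 in KD, and 0, 2 and 0 in OE. The groups overlapped for Cybb in all 3 comparisons. KD did not overlap WT for Nox1 or Nox4, nor OE for Nox1, but these separations rest on at most 5 counts in a library. Nox1 overlaps Cstf2, Arl13a and Xkrx in the annotation, the last on the same strand, so its few counts may be shared with those genes. A group at 0 counts allows up to 3 counts per library, which is 0.0655 CPM on average in WT and 0.0654 in KD, so these values lie at or barely above the limit of this depth, and no fold is given.

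Per kilobase of exon, the level of Cybb, Nox1 and Nox4 together was 0.0348 RPKM in WT (SD 0.015, n = 3), 0.0163 RPKM in KD (SD 0.010) and 0.0265 RPKM in OE (SD 0.0083), where RPKM is CPM divided by the exonic length in kilobases. On the same scale Cyba alone was at 18.8 ± 1.55 in WT, 23.6 ± 1.06 in KD and 0.547 ± 0.088 in OE. In every group, OE included, the mRNA of the stabilising partner was far above that of the 3 catalytic subunits.

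Ncf1, which encodes the organiser p47phox, had 0, 2 and 5 counts in WT, 1, 2 and 2 in KD, and 7, 2 and 2 in OE. Its groups overlapped in every comparison. Ncf1 overlaps Gtf2ird2 on the opposite strand in the annotation, and with the use of strand not given in the sources used here, its few counts may be shared with that gene.

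The dual oxidases themselves were as scarce. Duox1 had 4, 8 and 10 counts in WT, 6, 0 and 6 in KD, and 3, 7 and 4 in OE. Duox2 had 0, 2 and 2 counts in WT, 13, 2 and 2 in KD, and 7, 11 and 2 in OE. The groups overlapped for both genes in all comparisons. Summed over its 3 libraries, each group had a like number of counts for the 5 catalytic members, 48 for WT, 45 for KD and 49 for OE.

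The maturation factors differed from each other. Duoxa1, the partner of Duox1, had 4, 0 and 2 counts in WT, 11, 0 and 1 in KD, and 7, 6 and 0 in OE, with overlap between all groups. Duoxa2 (ENSMUSG00000027225), the partner of Duox2, had 0, 0 and 2 counts in WT and 0 in each KD library, but 164, 186 and 174 counts in OE. The OE libraries stood at 3.49, 3.75 and 3.87 CPM, well clear of all others, while WT and KD overlapped at the floor. Its mean in OE was 3.70 ± 0.191 CPM (SD, n = 3), at least 56.5-fold higher than in WT and at least 56.6-fold higher than in KD, with the lower group set to 3 counts per library. In level per kilobase of exon, Duoxa2 in OE (2.33 ± 0.120 RPKM) exceeded 42.3% of the tested genes with a known length.

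Duoxa2 lies at chr2:122298900-122302885 on the plus strand of GRCm38, between its partner and Duoxa1. Duox2 points away from it, with start sites 451 bases apart, and the 3′ ends of Duoxa2 and Duoxa1 overlap by 695 bases on opposite strands. Duoxa1 and Duox1 also point away from each other, with start sites 1942 bases apart. In OE, the high count was found for Duoxa2 alone among these 4 neighbouring genes: the highest OE count of the other 3 was 11, for Duox2. Counts from the overlap with Duoxa1 could be assigned to either gene if strand was not used.

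In OE against WT, 2 of the 9 genes (Cyba and Duoxa2) had groups that did not overlap, where 45.1% of all tested genes did not overlap. They did not overlap for 3 of 9 in KD against WT (Cyba, Nox1 and Nox4), where the share of tested genes was 34.7%. For OE against KD it was also 3 of 9 (Cyba, Nox1 and Duoxa2), with a share of 55.4%. The shares cover only genes that passed the filter, and of the 9 only Cyba and Duoxa2 did. Duoxa2 passed on its OE libraries, having at most 2 counts in each WT or KD library. Of these 2 genes, Cyba stood apart in all 3 comparisons, and Duoxa2 in the 2 that include OE. The counts out of 9 therefore have no matching share. At an adjusted p under 0.05 in edgeR's quasi-likelihood test, 11.0% of all tested genes rose and 10.4% fell in KD against WT, and 19.4% were higher and 22.1% lower in OE against KD. The 3 comparisons share libraries in pairs. These counts describe genes picked on their values.

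Genes around Cyba were examined next. The 20 Mb window that holds Cyba contains 105 tested genes, whose log2 fold changes had medians of -0.44 in OE against WT and 0.035 in KD against WT. Within 1 Mb of the Cyba start site, 30 of 49 other tested genes fell and 4 rose in OE at an adjusted p under 0.05 in edgeR's quasi-likelihood test, with a median of -0.48. Over all genes tested, 19.5% fell and 16.9% rose. Less its window median, the log2 fold change of Cyba in OE was -4.66.

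The nearest tested genes did not share one direction in OE. Mvd, an enzyme of the mevalonate pathway that starts 10.5 kb away, rose by 0.35 on the log2 scale (SE 0.064, edgeR adjusted p = 8.49e-05). Zc3h18, a nuclear RNA processing factor on the other side at 56.3 kb, fell by 0.43 (SE 0.046, edgeR adjusted p = 1.36e-07). Zfpm1, which encodes the GATA cofactor FOG1 at 150.8 kb, fell by 1.24 (SE 0.048, edgeR adjusted p = 1.42e-14). Snai3, of the Snail repressor family at 27.8 kb, had 0.216 CPM in WT and 0.202 in OE, and in KD it was at least 3.30-fold lower (edgeR adjusted p = 0.0159), a call lost without KD replicate 2 (0.0768) or KD replicate 3 (0.0697). The predicted genes Gm45353 and Gm20735 had means of at most 1.45 CPM in any group. Gm45353 was at least 3.31-fold lower in OE (edgeR adjusted p = 0.0293), a call lost without WT replicate 2 (0.0911), OE replicate 1 (0.0737) or OE replicate 3 (0.12). Gm20735 had a log2 fold change of 0.26 (SE 0.14, edgeR adjusted p = 0.448).

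**Figure D3:**
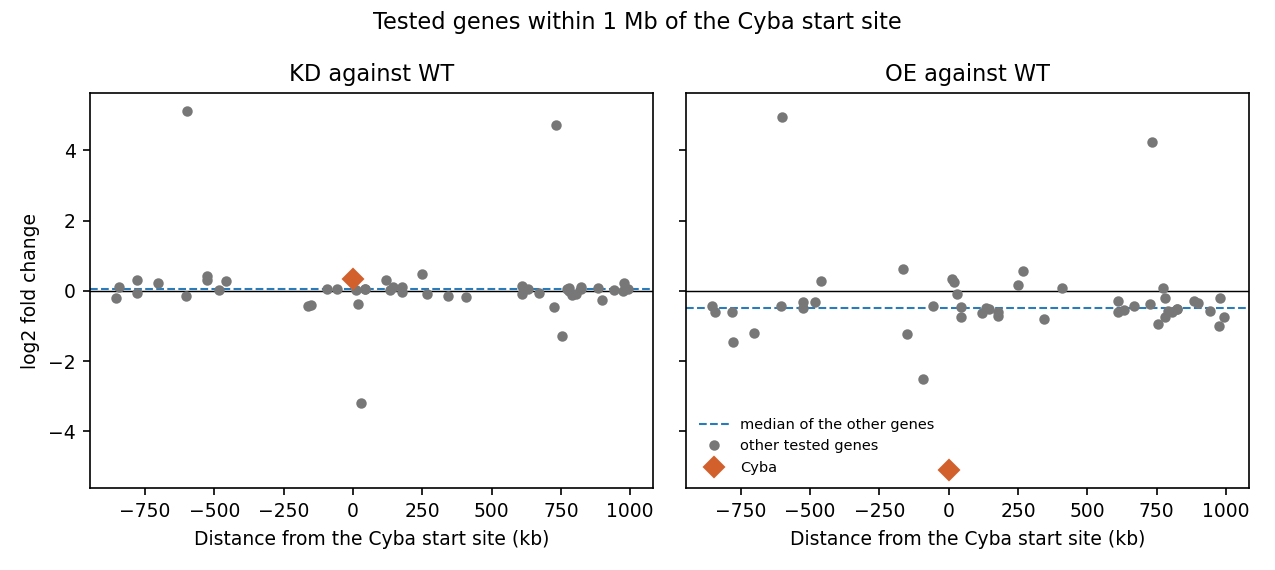
Log2 fold change of every tested gene within 1 Mb of the Cyba start site against its distance from that site in kilobases, in KD against WT (left) and OE against WT (right); the dashed line is the median of the 49 genes other than Cyba. In OE most neighbours lie below 0, with a median of -0.48, and Cyba lies at -5.10.

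Within 1 Mb of the Duoxa2 start site, 4 of 25 other tested genes rose and 1 fell in OE against WT at an adjusted p under 0.05 in edgeR's quasi-likelihood test, with a median of 0.087. The shares over all genes tested were 16.9% for rises and 19.5% for falls. Of the 3 nearest tested genes on either side (Sord, Rps12-ps10, Trim69, Shf, Gatm and Spata5l1), 0 of 6 passed in OE against WT with edgeR, 0 with DESeq2 and 0 at an unadjusted p under 0.05. Their log2 fold changes ran from -0.13 to 0.67, the highest being that of Gatm, at 0.182 CPM in WT and 0.300 in OE. Sord, the sorbitol dehydrogenase gene 63.7 kb from Duox2, had means of 83.97 CPM in WT, 82.8 in KD and 82.5 in OE. In KD, Shf, an adaptor protein gene, fell by 0.47 (SE 0.14, edgeR adjusted p = 0.00315), and it was 0.59 higher in OE than in KD (SE 0.081, edgeR adjusted p = 0.000131). The window around Duoxa2 had a median of 0.028 in OE over 168 genes.

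The genes whose log2 CPM correlated most highly with that of Cyba over the 9 libraries were Fam210b, Cd200 and Mtmr3. Fam210b, a mitochondrial membrane protein gene, had a Pearson correlation of 0.999. Cd200, an immunoregulatory surface protein gene, had 0.998, and Mtmr3, a phosphoinositide phosphatase gene, had 0.997. Such a correlation does not measure the size of a change, and each of them fell by less than Cyba in OE. Cd200 had 20.7 ± 1.04 CPM in WT (SD, n = 3), 23.8 ± 1.70 in KD and 4.92 ± 0.367 in OE. Fam210b had 36.6 ± 0.754 CPM in WT, 38.8 ± 0.514 in KD and 17.0 ± 0.141 in OE. Mtmr3 had 105.9 ± 1.12 CPM in WT, 107.7 ± 1.78 in KD and 71.8 ± 1.90 in OE. For Duoxa2 the most correlated genes included Fgfbp3, a carrier of fibroblast growth factors, with 0.997, and Ank2, which encodes a membrane skeleton adaptor, with 0.995. Ank2 had 17.2 ± 0.733 CPM in WT, 17.0 ± 0.288 in KD and 35.5 ± 2.06 in OE. Fgfbp3 had 1.59 ± 0.250 CPM in WT, 1.23 ± 0.215 in KD and 35.9 ± 0.702 in OE. These values were chosen as the highest among 10577 genes, and since 3 of the 9 points are OE libraries standing apart from the rest, they carry little beyond that contrast.

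The rest of the pathway was followed in 7 lists of 79 genes in all that are no members, of which 61 were tested. In KD against WT, 13 rose and 11 fell at an adjusted p under 0.05 in edgeR's quasi-likelihood test, 39.3% of those tested against 21.4% of all genes. In OE against WT, 15 rose and 21 fell, 59.0% against 36.4% of all genes, and in OE against KD 15 rose and 21 fell, against 41.5% of all genes. These shares were not set against genes of like expression level, and the lists were chosen with earlier results of these data known. Whether the higher shares are particular to the pathway was not tested. Median log2 fold changes over the list genes were 0.019 (KD) and -0.035 (OE), and over all tested genes -0.0022 and 0.0020. With library totals in place of TMM the split over all genes moved from 1861 higher and 1760 lower to 886 and 1588 in KD, and from 2873 and 3301 to 1623 and 3506 in OE.

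The list of other oxidase subunits, assembly factors and associated genes held 14 genes, of which 8 were tested, with medians of -0.010 in KD and -0.034 in OE. In KD 2 rose and 2 fell. Rac1, the GTPase subunit, was abundant at 509.5 ± 6.67 CPM in WT (SD, n = 3) and rose by 0.17 (SE 0.013) on the log2 scale in KD, with an edgeR adjusted p of 0.00122, or 0.126 when scaled by library totals alone. Noxo1, the organiser used by NOX1, stood at 0.665 CPM in WT and 0.289 in KD (log2 fold change -1.19, SE 0.28, edgeR adjusted p = 0.0379), a call lost in 8 of 15 alternatives, among them without WT replicate 1 (0.0882), WT replicate 3 (0.111) or KD replicate 3 (0.167). In OE 2 fell with edgeR and 1 with DESeq2, and 0 rose (1 at an unadjusted p under 0.05, 0 with DESeq2). The larger of these changes was that of Hvcn1, the proton channel that balances the charge moved by NADPH oxidases, at -0.92 (SE 0.37, edgeR adjusted p = 0.0471). Hvcn1 had 0.902 CPM in WT, and its call was lost in 11 of 16 alternatives, DESeq2 (adjusted p = 0.0501) and the omission of any 1 KD or OE library among them. Without WT replicate 2 its change was -0.50, with an edgeR adjusted p of 0.349. The scaffold genes Sh3pxd2b and Sh3pxd2a, which encode organiser proteins of podosomes, were 0.29 higher (SE 0.026, edgeR adjusted p = 7.38e-05) and 0.20 lower (SE 0.019, edgeR adjusted p = 0.000551) in OE than in KD. Among those that did not pass the filter, Nox3, Noxa1, Ncf4, Rac2 and Nrros had 1 to 30 counts each over the 9 libraries.

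Of the kinases and Rac exchange factors that switch the enzymes on, 11 of 14 were tested, with medians of 0.039 in KD and -0.10 in OE. In KD 2 rose and 2 fell, and in OE 3 rose and 5 fell. Pak1, a Rac-dependent kinase, fell by 0.60 in KD (SE 0.054, edgeR adjusted p = 0.000134) and rose by 0.51 in OE (SE 0.055, edgeR adjusted p = 0.000161). The Rac exchange factor gene Tiam1 went the other way, with a rise of 0.32 in KD (SE 0.049, edgeR adjusted p = 4.82e-05) and a level 0.84 lower in OE than in KD (SE 0.039, edgeR adjusted p = 8.07e-12). Vav2, another Rac exchange factor, fell by 0.57 in OE (SE 0.053, edgeR adjusted p = 3.92e-09).

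Among 12 ligands and receptors known to act upstream of these enzymes, 9 were tested, with medians of -0.089 in KD and -0.27 in OE. In KD 2 rose and 2 fell, and in OE 6 fell and 0 rose (0 also at an unadjusted p under 0.05 and with DESeq2). Agtr1a, the angiotensin II receptor, had 12 to 32 counts in WT, 0 to 2 in KD and 24 to 27 in OE, and was at least 6.25-fold lower in KD than in WT (edgeR adjusted p = 0.000464). Tgfbr2, a TGF-beta receptor, had 263.9 ± 13.7 CPM in WT (SD, n = 3), 372.0 ± 12.0 in KD and 114.2 ± 3.42 in OE, a log2 difference of -1.70 (SE 0.037) between OE and KD with an edgeR adjusted p of 5.97e-17. Pdgfrb, a platelet-derived growth factor receptor, fell by 1.42 in OE (SE 0.34, edgeR adjusted p = 5.17e-05), and is also one of the smooth muscle and fibroblast markers, as Kdr of this list is of the endothelial ones. Tlr4, the endotoxin receptor, rose by 0.57 in KD (SE 0.15, edgeR adjusted p = 0.00026).

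All 9 genes that supply NADPH were tested. In KD the median was 0.031, with 1 fall, that of the NAD kinase gene Nadk (-0.13, SE 0.046, edgeR adjusted p = 0.0428), a call lost in 13 of 16 alternatives, and 0 rises (2 at an unadjusted p under 0.05, 0 with DESeq2). In OE 5 rose and 1 fell, with a median of 0.33. The genes that rose were G6pdx and Pgd of the pentose phosphate pathway, the isocitrate dehydrogenase gene Idh1, Nadk and Nadk2. Idh1 rose most, from 46.0 ± 0.188 CPM in WT to 68.1 ± 1.37 in OE (log2 fold change 0.56, SE 0.017, edgeR adjusted p = 3.37e-08). Nadk2, the mitochondrial NAD kinase, was 0.47 higher in OE than in KD (SE 0.038, edgeR adjusted p = 3.17e-06), and Idh2, the mitochondrial isocitrate dehydrogenase gene, fell by 0.25 in OE (SE 0.051, edgeR adjusted p = 0.000371). Pgd and Nadk share a 20 Mb window on chromosome 4 whose median in OE was 0.30, and less that median their changes were 0.031 and 0.028. The list median was 0.031 with window medians removed.

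The enzymes that remove superoxide and peroxide were 15 genes, all tested, with medians of 0.019 in KD and 0.035 in OE. In KD 4 rose and 2 fell, and in OE 5 rose and 3 fell. Prdx6, a peroxiredoxin that also has phospholipase activity, had 165.5, 158.9 and 150.2 CPM in WT, 418.6, 417.2 and 408.0 in KD, and 148.9, 154.0 and 157.5 in OE. The KD libraries thus stood far above the others, which overlapped. Its log2 fold change in KD was 1.39 (SE 0.042, edgeR adjusted p = 2.83e-15), and -0.043 in OE. A near-identical gene copy, Prdx6b, had 5 to 44 counts per library, against 6281 to 21082 for Prdx6. Sod3, the extracellular superoxide dismutase, fell by 0.61 in KD (SE 0.092, edgeR adjusted p = 6.26e-06) and by 0.46 in OE (SE 0.075, edgeR adjusted p = 5.54e-05). Prdx1, a cytosolic peroxiredoxin, rose by 0.41 in OE (SE 0.12, edgeR adjusted p = 0.000908), and the median of its own 20 Mb window on chromosome 4 was 0.36.

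Among 5 listed peroxidases, enzymes that use hydrogen peroxide, Lpo, Mpo and Epx were hardly expressed, with 2, 32 and 1 counts over the 9 libraries. The only 1 of the 5 that was tested, Pxdn, which crosslinks collagen IV, had a mean of 147.6 CPM in WT. Pxdn fell by 0.50 in KD (SE 0.077, edgeR adjusted p = 7.54e-07) and by 0.53 in OE (SE 0.081, edgeR adjusted p = 1.06e-07).

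Of 10 other enzymes that make oxidants, 8 were tested, with medians of 0.11 in KD and -0.095 in OE. In KD 3 rose and 1 fell, and in OE 2 rose and 3 fell. The endoplasmic reticulum oxidase genes Ero1l and Ero1lb were among the rises. Ero1l rose by 0.92 in OE (SE 0.055, edgeR adjusted p = 4.95e-11). Ero1lb rose by 1.15 in KD (SE 0.14, edgeR adjusted p = 7.26e-08) and by 0.80 in OE (SE 0.12, edgeR adjusted p = 2.87e-06). The monoamine oxidase gene Maoa fell by 0.26 in KD (SE 0.060, edgeR adjusted p = 0.000831) and by 0.86 in OE (SE 0.063, edgeR adjusted p = 4.37e-11). Aox1, an aldehyde oxidase gene, was 0.94 lower in OE than in KD (SE 0.10, edgeR adjusted p = 5.16e-08).

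**Figure D4:**
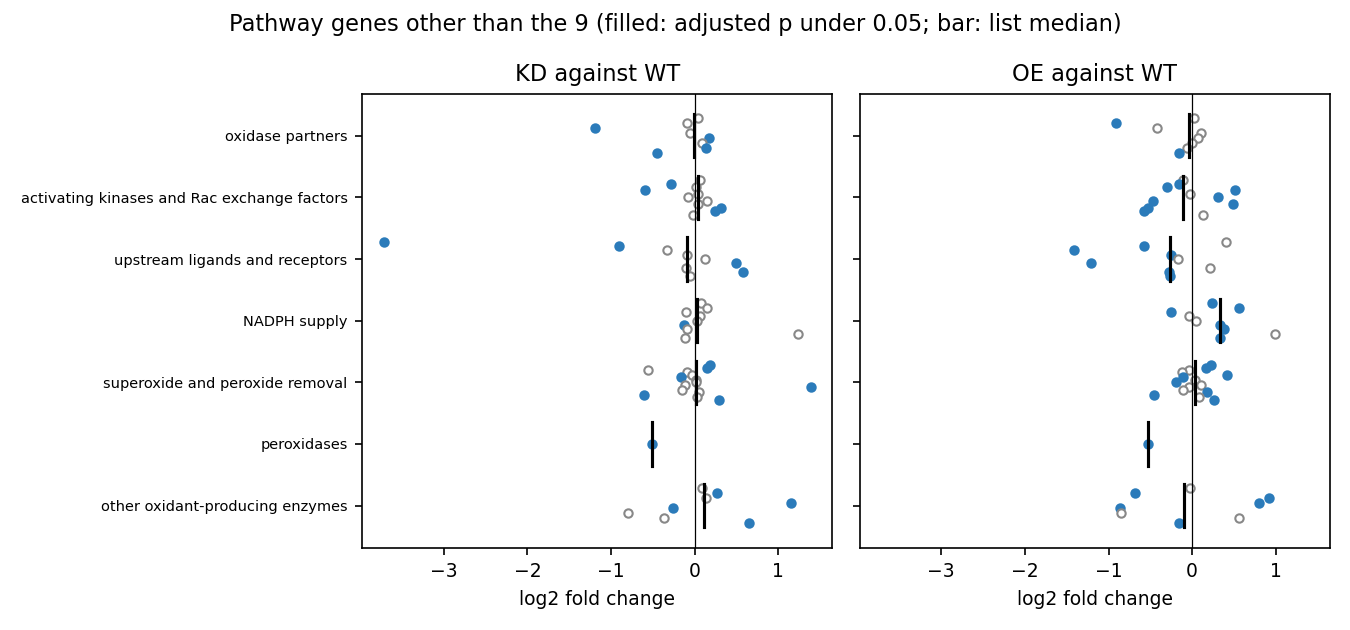
Log2 fold change of each tested pathway gene other than the 9, by list, in KD against WT (left) and OE against WT (right); filled points have an adjusted p under 0.05 in edgeR's quasi-likelihood test and bars are list medians. In OE the median of the NADPH supply list lies at 0.33 and that of the upstream ligands and receptors at -0.27, and the point farthest left in KD is Agtr1a.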

How the data were processed

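The authors deposited raw counts from poly-A RNA-seq, 1 whole number for each Ensembl gene in each library, not normalised, as judged from the values. The submitters' processing notes name GRCm38 and mm10, and the aligner, counter, strand setting and annotation release are not given in the sources used here. Repeated rows with identical counts were used once, which left 55487 of 55774. Positions and exonic lengths came from GENCODE M21 and start regions from RefSeq (GRCm38.p6), which had all 9 members.

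Genes passing filterByExpr (16955) were scaled with TMM and fitted in edgeR 4.0.16 (quasi-likelihood, robust, 9 libraries, group as the only term) under R 4.3.3, with Benjamini-Hochberg adjustment and a threshold of 0.05. Standard errors were computed from the group SDs of log2 CPM, with a prior count of 2. Bounds set a group with at most 3 counts per library to 3. The procedure was tested on simulated data with the same dispersion for every gene and smaller changes than those of Cyba and Duoxa2. That run does not show how it performs for weakly expressed genes here. DESeq2 1.42.0, other scalings and filters, the compared groups alone, the replicate number as a block, each library left out, and removal of 20 Mb window medians were tried.

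Members and lists were chosen with earlier results of these data known. Outside the members, the text names, in each list and comparison, the largest rise and fall past the threshold, the 3 tested genes on either side of Cyba and of the Duox genes, and the 3 genes, of at least 5 CPM in a group, most correlated with each tested member. Marker lists cover endothelial, myeloid, epithelial, and smooth muscle and fibroblast genes. A few further list genes were named after their values were seen, and a few items are not reported here. Nnt has 2 identifiers, and the one with counts was used.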

Additional observations from a re-analysis of the deposited data

How the results depend on the processing

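Cyba kept its direction in all 3 comparisons under all 17 alternatives, with log2 fold changes of 0.28 to 0.40 in KD against WT, -5.22 to -4.66 in OE against WT and -5.56 to -4.97 in OE against KD, the smallest falls being those with window medians removed. Duoxa2 was dropped when at least 10 counts in every library were required. Leaving out 1 library gave 2537 to 4699 genes past the threshold in KD against WT, 5228 to 6440 in OE against WT and 6072 to 7604 in OE against KD, and for the 61 pathway genes 17 to 33, 28 to 38 and 30 to 40. The other 7 alternatives gave 18 to 24, 33 to 37 and 30 to 41 pathway genes. Same-numbered libraries of different groups had correlations of their deviations between -0.042 and 0.049, so no shared deviation by number was seen. Such correlations cannot show whether those libraries were handled together. With the replicate block 3575, 6111 and 6970 genes passed, and 23, 35 and 36 pathway genes. Calls of weakly expressed or slightly changed genes moved most: besides those given above, Aox1 in KD was lost in 7 alternatives, Sh3pxd2a in KD in 6, Tlr4 in OE in 6, Rac1 in OE against KD in 7 and Gm20735 in OE against KD in 8, and no named call reversed. The cause was not tested. With 0 to 13 counts per library, 7 of the 9 genes could not be compared at this depth.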
